A study of Mus musculus with 12 samples.

Results

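Growth hormone (Gh), prolactin (Prl), proopiomelanocortin (Pomc), the glycoprotein hormone alpha chain (Cga), the beta chains of luteinizing hormone (Lhb) and thyrotropin (Tshb), the pituitary factor Pou1f1 and the growth hormone releasing hormone receptor (Ghrhr) were followed across 12 striatal libraries. These 8 genes were chosen by symbol, and 9 of the 57132 rows of the count table carry their names, because Lhb stands on 2 rows. The choice was made when the counts of these genes in these libraries were already known, so levels and fold changes of the 8 genes are descriptions and carry no test. RNA came from the striatum of 10-month-old C57Bl/6 mice, 6 TAAR5-KO mice without trace amine-associated receptor 5 (TAAR5) and 6 WT littermates. Each genotype comprised 3 males and 3 females. The labels name no treatment, and the tissue was a coronal brain slice freed of cortex, so other structures of that slice were not separated from the striatum. By name, the 12 columns NK1 to NK12 are tied to a genotype but to no sex or single animal. The p-values measure only the spread between these libraries.

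The anterior pituitary lies below the brain, outside the striatum, and its endocrine cells each make mainly 1 hormone type. Somatotropes make growth hormone and lactotropes prolactin, and both depend on the transcription factor POU1F1, as do the thyrotropes, which make thyrotropin from Cga and Tshb. Corticotropes and melanotropes make proopiomelanocortin, which is also a product of neurons in the arcuate nucleus of the hypothalamus, and gonadotropes pair Cga with Lhb or Fshb. Pituitary cells express these genes at far higher levels than brain tissue does.

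The POU1F1 binding element of these hormone genes is close to ATGNATA, or TATNCAT on the other strand, and the 250 bases before the RefSeq transcription start were searched for both forms, which are 1 motif on either strand. RefSeq promoter windows matched 6 of the 8 genes, not Gh and Ghrhr. At least 1 copy was found in 7.92% of all 32851 windows of that length, and at least 2 copies in 1.26%. The windows of Prl, Tshb and Pomc are printed because Prl had the most counts, Tshb is another POU1F1-dependent hormone with a different pattern across libraries, and Pomc belongs to another cell lineage. Each is given 5′ to 3′ on the strand of the gene with the motif in capitals, and the coordinates are those of GRCm38.p6, not of the build of the counts. The Prl window is chr13:27057320-27057569 (plus strand), that of Tshb chr3:102782715-102782964 (minus strand) and that of Pomc chr12:3954695-3954944 (plus strand).
Prl: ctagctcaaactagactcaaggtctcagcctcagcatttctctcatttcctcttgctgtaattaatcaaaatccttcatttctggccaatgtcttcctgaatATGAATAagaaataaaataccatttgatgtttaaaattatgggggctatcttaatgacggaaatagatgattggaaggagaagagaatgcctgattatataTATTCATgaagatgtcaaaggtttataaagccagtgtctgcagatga
Tshb: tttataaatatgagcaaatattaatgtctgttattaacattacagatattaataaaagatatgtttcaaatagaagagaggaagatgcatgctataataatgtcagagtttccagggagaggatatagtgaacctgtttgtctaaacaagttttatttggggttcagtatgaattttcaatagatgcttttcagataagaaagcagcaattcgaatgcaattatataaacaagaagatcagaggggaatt
Pomc: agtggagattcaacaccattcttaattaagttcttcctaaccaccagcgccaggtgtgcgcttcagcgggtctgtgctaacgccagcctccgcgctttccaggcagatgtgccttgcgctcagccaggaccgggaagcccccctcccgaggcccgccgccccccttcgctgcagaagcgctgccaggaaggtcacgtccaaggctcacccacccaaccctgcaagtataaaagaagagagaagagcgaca
Prl held 2 copies, which begin 148 and 47 bases before the start. The windows of Tshb, Pomc, Cga and Lhb held 0 copies, and 1 of the 2 windows of Pou1f1 held 1. A match of letters is not a bound site, and a window without one says nothing about the factor.

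Total counts ran from 13766808 to 34824450 in libraries labelled TAAR5-KO and from 11269915 to 21198210 in those labelled WT, with 64.3% to 88.1% of them on ribosomal RNA features. Outside ribosomal RNA, 1819907 to 6399188 counts were left. Levels are given in CPM, counts scaled to a library size of 1000000 with the trimmed mean of M-values (TMM). A gene listed at 0 could have a level of up to 3 counts, or 0.0679 to 0.362 CPM depending on the library. Such limits and the intervals given here cover counting error only. Taar5 itself had 1 to 6 counts in libraries labelled TAAR5-KO and 0 to 2 in those labelled WT, the reverse of the order that the labels would give. Only NK6 exceeded 3 counts, so these counts do not decide whether the labels hold. Libraries are called by their label throughout. Defining genes of striatal spiny neurons were counted in every library, with 113 to 501 counts for the dopamine receptor gene Drd1 and 320 to 1445 for Ppp1r1b, which encodes DARPP-32.

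Prolactin was the most counted of the 8 genes, with 1763 of all counts on them (78.6%), and NK11 and NK12, both labelled WT, held 84.8% of the Prl counts. Prl (ENSMUSG00000021342.15) is a protein-coding gene on chromosome 13 of GRCm39 from 27241553 to 27249188, with 1408 bases of merged exons. From NK7 to NK12, labelled WT, its counts were 2, 1, 6, 123, 1006 and 489. From NK1 to NK6, labelled TAAR5-KO, they were 3, 0, 1, 2, 111 and 19. NK10, NK11 and NK12 thus lay above all libraries labelled TAAR5-KO on the CPM scale, while NK7, NK8 and NK9 lay among them. In NK11 the level of Prl was 46.5 CPM (95% exact Poisson interval 43.7 to 49.5) and ranked 335 by count among the 13902 features with at least 0.5 CPM before TMM scaling in at least 3 libraries, the filter used for all tests.

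Prl averaged 12.2 ± 18.0 CPM (SD, n = 6) under the WT label and 0.932 ± 1.84 CPM (SD, n = 6) under the TAAR5-KO label. In each group the SD exceeded the mean. The fitted log2 fold change, TAAR5-KO label relative to WT label, was −3.69 (SE 1.12). It was −2.49 without NK11, −5.91 without NK5 and −2.03 without NK11 and NK12 together. In bulk RNA, fewer cells of a type and less RNA per cell cannot be told apart.

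Growth hormone followed prolactin across libraries at a lower level. Gh (ENSMUSG00000020713.7, chromosome 11 of GRCm39, 106191097 to 106192691, minus strand, 862 bases of merged exons) had 263 counts in all, 87.8% of them in NK11 and NK12. Its counts in NK7 to NK12, labelled WT, were 3, 1, 0, 11, 127 and 104. Those in NK1 to NK6, labelled TAAR5-KO, were 2, 0, 0, 0, 12 and 3. Only NK5, NK10, NK11 and NK12 exceeded 3 counts, and these 4 also had the most Prl. NK10 to NK12 lay above all libraries labelled TAAR5-KO, at 1.33, 5.87 and 2.35 CPM against 0.504 CPM in NK5.

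Gh averaged 1.62 ± 2.28 CPM (SD, n = 6) under the WT label and 0.123 ± 0.197 CPM (SD, n = 6) under the TAAR5-KO label. Its log2 fold change of −3.59 (SE 1.01) moved to −2.51 without NK11 and to −4.89 without NK5. Without NK11 and NK12 together Gh no longer passed the filter. The plot of counts by library shows the same few libraries standing out for Prl and Gh.

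**Figure D1:**
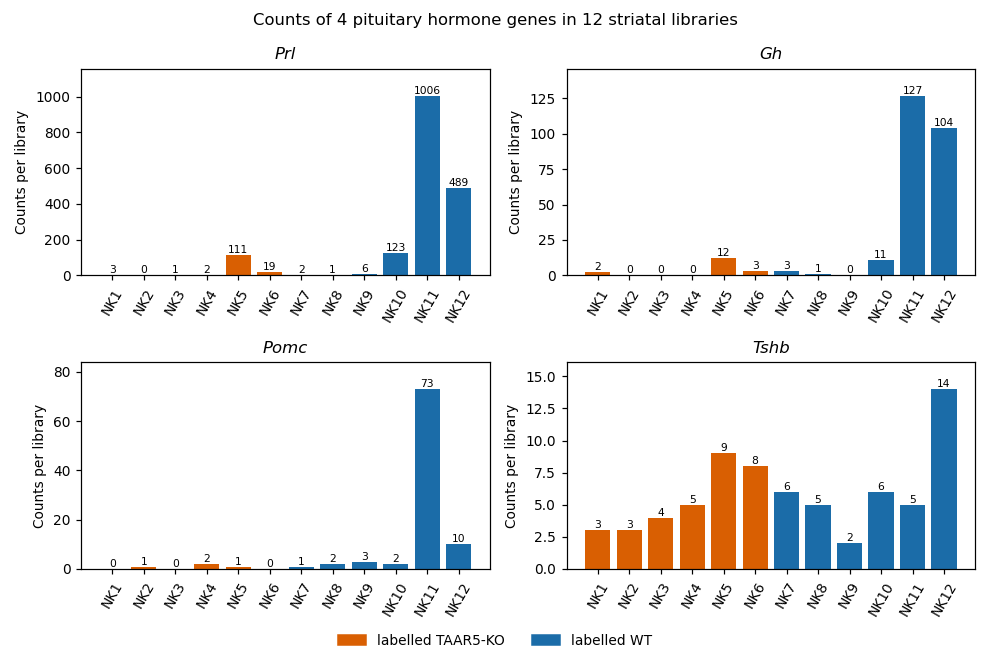
Counts of Prl, Gh, Pomc and Tshb (vertical axes, each from 0 on its own scale) in the 12 libraries NK1 to NK12, coloured by genotype label, with the count above each bar. Prl reaches 1006 in NK11 and 489 in NK12, Gh 127 and 104 and Pomc 73 and 10, whereas Tshb lies between 2 and 14 in all libraries.

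The ratio of both hormones was compared within libraries. Per kb of exon, Prl was 4.85 times as high as Gh in NK11, 2.88 times in NK12, 6.85 times in NK10 and 5.66 times in NK5. Of the counts on both genes, Gh took 11.2% in NK11 (95% exact binomial interval 9.43 to 13.2), 17.5% in NK12 (14.6 to 20.8), 8.21% in NK10 (4.17 to 14.2) and 9.76% in NK5 (5.14 to 16.4). The intervals of NK11 and NK12 did not overlap, and those of NK5 and NK10 overlapped that of NK11. Over the 12 libraries, Pearson's r between the log2 CPM of Gh and Prl was 0.94, the highest of the 13901 other features tested. This r is a description, since Gh and Prl of a point share the library and its scaling, and NK5, NK10, NK11 and NK12 hold the highest values of both.

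**Figure D2:**
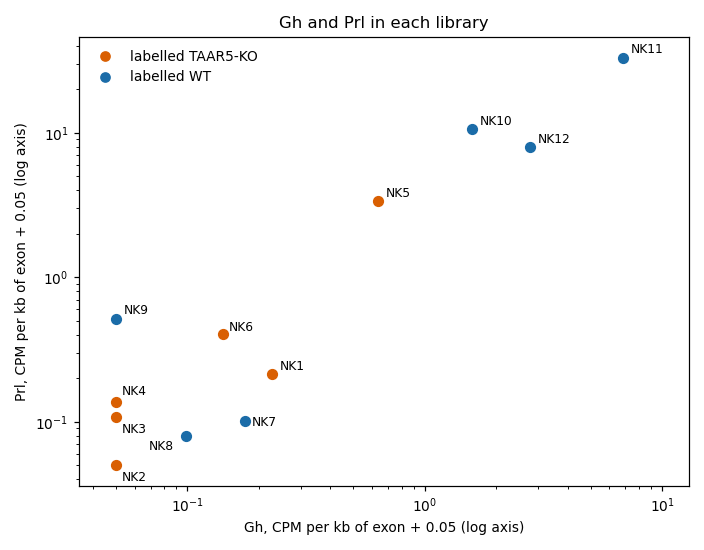
Level of Prl (vertical) against that of Gh (horizontal), both in CPM per kb of exon plus 0.05 on log axes, 1 point per library, coloured by genotype label. NK5, NK10, NK11 and NK12 lie apart from the other 8 libraries, with Prl from 3.31 to 33.0 CPM per kb and Gh from 0.585 to 6.81 CPM per kb.

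Pomc (ENSMUSG00000020660.7, chromosome 12 of GRCm39, 4004951 to 4010642), the precursor gene of corticotropin, melanotropins and beta-endorphin, had 95 counts. Its counts in NK7 to NK12, labelled WT, were 1, 2, 3, 2, 73 and 10. Those in NK1 to NK6, labelled TAAR5-KO, were 0, 1, 0, 2, 1 and 0. Only NK11 and NK12 exceeded 3 counts, so Pomc did not pass the filter and has no fitted fold change. Pomc averaged 0.715 ± 1.31 CPM (SD, n = 6) under the WT label and 0.0407 ± 0.0516 CPM (SD, n = 6) under the TAAR5-KO label.

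The share of Pomc beside prolactin varied between libraries. Of the counts on Pomc and Prl, Pomc took 6.77% in NK11 (95% exact binomial interval 5.34 to 8.43) and 2.00% in NK12 (0.965 to 3.65). In NK10 it took 1.60% (0.194 to 5.66) and in NK5 0.893% (0.0226 to 4.87). The intervals of NK11 and NK12 do not overlap, as for Gh, but each describes a single library and leaves out the spread between animals.

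Thyrotropin beta showed another pattern. Tshb (ENSMUSG00000027857.11, chromosome 3 of GRCm39, 102682781 to 102690034, minus strand) has 4555 bases of merged exons, the longest of the 8 genes. Its span overlaps that of Tspan2 on the other strand, with 0 exonic bases shared. The strand setting of the counting is not stated, so whether some of these counts are reads of unspliced Tspan2 RNA was not tested. NK1 to NK6, labelled TAAR5-KO, had 3, 3, 4, 5, 9 and 8 counts of it. NK7 to NK12, labelled WT, had 6, 5, 2, 6, 5 and 14. The groups overlapped, and NK11, the library with the most Prl and Gh, had fewer Tshb counts than NK5. Tshb averaged 0.281 ± 0.0666 CPM (SD, n = 6) under the TAAR5-KO label and 0.319 ± 0.202 CPM (SD, n = 6) under the WT label, with a fitted log2 fold change of −0.033 (SE 0.37). Per kb of exon, Prl was 651 times as high as Tshb in NK11 but 7.68 times as high in NK6. The log2 CPM of Tshb had a Pearson's r of 0.37 with that of Gh over the 12 libraries.

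The alpha chain and the gonadotropin chain were at the limit of detection. Cga (ENSMUSG00000028298.11, chromosome 4 of GRCm39, 34893779 to 34907370), which encodes the chain that thyrotropin and the gonadotropins share, had 1 count in each of NK9, NK10, NK11 and NK12 and 0 in the other 8 libraries. In NK11 that was 1 count beside 1006 of Prl, or 0.0993% of both (95% exact binomial interval 0.00251 to 0.552). An antisense long non-coding RNA, Platr9, shares 305 of the exonic bases of Cga, and the strand setting of the counting is not stated, so those counts cannot be assigned.

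Lhb stands in the annotation as a 678-base gene (ENSMUSG00000100916.4, chromosome 7 of GRCm39, 45070244 to 45071321) and as a longer 2501-base gene of the same name (ENSMUSG00000118462.2, 45067777 to 45071278). The shorter was listed at 0 in all 12 libraries. All of its exonic bases are shared with the longer gene and 78.2% with Ruvbl2 on the other strand, so a read there belongs to more than 1 gene, and its 0 is no measure of luteinizing hormone RNA. The longer gene had 0 to 5 counts in libraries labelled TAAR5-KO and 1 to 3 in those labelled WT, with the 5 in NK5. It shares 579 of its exonic bases with Ruvbl2, a widely expressed helicase gene.

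The transcription factor and the receptor were equally scarce. Pou1f1 (ENSMUSG00000004842.20, chromosome 16 of GRCm39, 65317397 to 65331183), the factor of somatotropes, lactotropes and thyrotropes, had 7 counts in NK11 and 0 to 3 in every other library. Ghrhr (ENSMUSG00000004654.7, chromosome 6 of GRCm39, 55353280 to 55365515), the somatotrope receptor for the releasing hormone, did not exceed 2 counts in any of the 12 libraries. No fold is given for Cga, Lhb or Ghrhr, and none for Pou1f1, which exceeded 3 counts in a single library. Of the 9 rows, 3 passed the filter, those of Gh, Prl and Tshb. Before TMM scaling, Gh reached 0.5 CPM in NK5, NK10, NK11 and NK12, Prl in these and NK6, and Tshb in NK5, NK7 and NK12.

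A further list of 17 anterior pituitary genes held lineage factors, hypophysiotropic receptors and the follitropin beta chain. Of these, 11 had at most 3 counts in every library and 2 passed the filter. Fshb, the follitropin beta chain, had 2 counts in NK10, 2 in NK12 and 0 elsewhere. The lineage factors Pitx1, Lhx3 and Tbx19 and the gonadotrope receptor gene Gnrhr stayed at or below 3 counts throughout. The summed level of the list was 1.62 to 2.56 CPM in libraries labelled TAAR5-KO and 1.88 to 4.93 CPM in those labelled WT, with the highest in NK9 rather than NK11 (3.05 CPM) or NK12 (1.88 CPM).

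Genotypes were compared over all 13902 features with edgeR's likelihood ratio test, with p-values adjusted by Benjamini–Hochberg and a threshold of 0.1, which called 1.65% of them, 0.957% higher and 0.691% lower under the TAAR5-KO label. On library size alone, without TMM, 7 features were called, 0 higher and 7 lower. The quasi-likelihood test called 0.453%, of which 0.309% were higher and 0.144% lower. DESeq2 called 177 of the 6893 features it gave an adjusted p (2.57%). An unadjusted p under 0.05 was reached in the likelihood ratio test by 11.9% of the 13902 features, against which the counts of the lists stand. Of the further pituitary genes, the 2 that could be tested, the receptor genes Trhr (log2 fold change −0.23, SE 0.27, adjusted p = 0.807 in edgeR) and Crhr1 (0.15, SE 0.42, adjusted p = 0.936 in edgeR), were not called. Neither was past an unadjusted p of 0.05, the quasi-likelihood test called 0 of both, and DESeq2 gave neither an adjusted p. The median log2 fold change of the 2 was −0.038, against −0.0061 over all features tested.

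Genes for hormone processing and secretory granules, which neurons use as well, were abundant. All 10 listed genes passed the filter, and 1 was called and was also the 1 gene at an unadjusted p under 0.05. Pcsk1n, which encodes the proSAAS inhibitor of a prohormone convertase, was lower under the TAAR5-KO label, with 16.9 ± 2.45 CPM (SD, n = 6) against 22.2 ± 3.83 CPM (SD, n = 6). The log2 fold change of Pcsk1n was −0.41 (SE 0.12, adjusted p = 0.0724 in edgeR's likelihood ratio test), and it was not called without NK1, NK2, NK5, NK7, NK8, NK11 or NK12. The quasi-likelihood test did not call it (adjusted p = 0.165), and DESeq2 called it (adjusted p = 0.0546). The median log2 fold change of the 10 genes was −0.042. Scg5, which encodes a chaperone of a prohormone convertase, was at 28.8 CPM in NK11 and 32.2 CPM in NK12, against 14.0 to 18.8 CPM in the other 10 libraries. It was not called between the labels (log2 fold change −0.33, SE 0.19, adjusted p = 0.488 in edgeR). Scg5 was picked after its values were seen. Of the 10 genes, 2 were highest in NK12, 1 in NK11 and the others in other libraries.

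Receptors of the pituitary hormones and their signalling genes were examined as the receiving side. Of 17 listed genes, 10 passed the filter, and edgeR's likelihood ratio and quasi-likelihood tests each called 0, with 3 at an unadjusted p under 0.05. DESeq2 called 0 of the 3 genes it gave an adjusted p. The list's median was −0.11 on the log2 scale, with −0.0061 for all features. The growth hormone receptor gene Ghr had 15 to 90 counts per library and a fitted difference of 0.22 on the log2 scale (SE 0.17, adjusted p = 0.662 in edgeR), which was not called. Socs2, a feedback inhibitor of growth hormone signalling, had the smallest adjusted p of the list (0.180 in edgeR), at a log2 fold change of 0.45 (SE 0.17). For Igf1, a growth hormone target in many tissues, the value was −0.48 (SE 0.19, adjusted p = 0.256 in edgeR).

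The prolactin receptor gene Prlr varied between libraries in another order than its ligand. Prlr had 25, 22, 7, 423, 403 and 40 counts in NK1 to NK6 and 181, 378, 69, 135, 337 and 59 in NK7 to NK12. Ttr, the transthyretin gene that marks choroid plexus in the brain, had 7, 6, 29, 6894, 3876 and 203 counts in NK1 to NK6 and 2823, 6190, 1721, 1828, 2878 and 61 in NK7 to NK12. Prlr and Ttr were thus highest in the same library, NK4, where Prl had 2 counts, and both were low in NK12, where Prl had 489. The log2 fold change of Prlr was −0.38 (SE 0.70, adjusted p = 0.891 in edgeR).

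Tissues that lie near the pituitary or could enter a striatal dissection were read from their own genes. Of 17 hypothalamic peptides and factors, 8 passed the filter, and edgeR's likelihood ratio and quasi-likelihood tests called 0, with 3 at an unadjusted p under 0.05. DESeq2 called 0 of the 2 it gave an adjusted p. The summed level of the list was 19.8 to 22.8 CPM in libraries labelled TAAR5-KO and 18.7 to 25.3 CPM in those labelled WT, highest in NK11, and several of its genes, such as Sst and Npy, also mark striatal interneurons. Its median log2 fold change was −0.17. Oxt, the oxytocin gene, had 32 counts in NK11, 14 in NK5 and NK8, 12 in NK7, 2 in NK12 and 0 in NK1, NK2, NK3 and NK6. Avp, the vasopressin gene, had 31 counts in NK11, 10 in NK7 and at most 2 in the other 10 libraries. Agrp, Hcrt and Pmch, defining peptides of arcuate and lateral hypothalamic neurons, had at most 2 counts anywhere.

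The other genes of the list did not all follow Oxt and Avp. Of the 8 tested, 2 were highest in NK11, Oxt and the thyrotropin releasing hormone gene Trh (1.25 CPM, with 1.21 CPM in NK9). Below the filter, Otp (12 counts, 0.555 CPM) and Rax (4 counts, 0.185 CPM) were also highest in NK11, as was Avp, whereas Gnrh1 was highest in NK4 (7 counts, 0.434 CPM). Nkx2-1, a ventral forebrain factor, was lowest in NK11, at 0.185 CPM (4 counts). Sim1, a factor of the paraventricular nucleus, was at 0.601 CPM in NK11 and 0.757 CPM in NK7. Crh was at 0.277 CPM in NK11 in a range of 0.162 to 0.585 CPM.

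NK11 combined the most Prl, Gh and Pomc with the most Oxt and Avp, whereas NK12, next by count for Prl, Gh and Pomc, had 2 counts of Oxt and 1 of Avp. The order by count need not be that by level, since library sizes differ, and the order by level depends on the scaling. With TMM, NK12 was below NK10 for Prl (11.1 against 14.8 CPM). Pomc in NK12 (0.226 CPM) was then below that in NK9 (0.329 CPM, 3 counts) and NK10 (0.241 CPM, 2 counts). On CPM outside ribosomal RNA these orders were reversed. Prl was then at 76.4 CPM in NK12 and 67.6 CPM in NK10, and Pomc at 1.56 CPM in NK12, 1.28 CPM in NK9 and 1.10 CPM in NK10. NK11 also had the lowest summed level of the 9 striatal spiny neuron genes, 196 CPM, against 311 to 370 CPM in the other libraries labelled WT and 333 to 431 CPM in those labelled TAAR5-KO. NK12 was next lowest, at 311 CPM. The part of tissue content in the genotype difference of Gh and Prl was not tested.

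Of 8 choroid plexus genes, all passed the filter and 0 were called by edgeR's likelihood ratio or quasi-likelihood test or among the 3 with an adjusted p in DESeq2, with 0 at an unadjusted p under 0.05 and a median log2 fold change of −0.49. Their summed level ran from 2.68 to 482 CPM in libraries labelled TAAR5-KO and from 3.71 to 294 CPM in those labelled WT. Of 8 leptomeningeal genes, 6 passed and 0 were called by edgeR's likelihood ratio or quasi-likelihood test (DESeq2 gave no adjusted p), with 1 at an unadjusted p under 0.05, a median of −0.34 and summed levels of 4.46 to 11.3 and 6.02 to 11.4 CPM. Of 5 pineal genes, only Lhx9 passed and it was not called (log2 fold change −1.31, SE 0.46, adjusted p = 0.147 in edgeR, unadjusted p = 0.00392) or by the quasi-likelihood test, and the summed level was at most 1.21 CPM. Of 5 blood genes, 3 were at an unadjusted p under 0.05, with a median of 0.51, and 1 was called, Hbb-bt, which was higher in libraries labelled TAAR5-KO (log2 fold change 1.70, SE 0.40, adjusted p = 0.00652 in edgeR's likelihood ratio test, 0.101 in the quasi-likelihood test), with 0 to 19 counts per library. Globin genes are near-identical copies whose reads the counting may have divided. Hbb-bs was at 6.43 CPM in NK11 and 5.34 CPM in NK12 in a range of 3.40 to 12.2 CPM. The 9 spiny neuron genes had 0 calls by edgeR's likelihood ratio and quasi-likelihood tests and 1 by DESeq2, with 4 of 9 at an unadjusted p under 0.05 and a median of 0.32. None of the summed levels of choroid plexus, leptomeninges, pineal or blood set NK11 and NK12 together apart from all other libraries. Taken alone, NK11 had the highest leptomeningeal sum, 11.4 CPM, with NK4 next at 11.3 CPM. Its pineal sum, 1.16 CPM, was next below that of NK9 (1.21 CPM).

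Prl and Gh counts were also set beside Xist, the RNA of the inactive X chromosome. Xist had 793 to 4869 counts in NK4, NK5, NK6, NK10, NK11 and NK12 and 2 to 12 in the other 6 libraries, where the Y-linked genes Ddx3y, Uty, Kdm5d and Eif2s3y summed to 254 to 648 counts. All 5 libraries with more than 6 Prl counts were among the 6 with high Xist, and the sixth, NK4, had 2 Prl counts. The cut of 6 is the highest Prl count at low Xist, so it was set by these data. The ranges that follow are descriptions of 3 libraries each and carry no test. How often ranges of 3 libraries lie apart over all features was not counted. Among the 3 high-Xist libraries of each label, Prl was 0.124 to 4.66 CPM in those labelled TAAR5-KO and 11.1 to 46.5 CPM in those labelled WT. Among the 3 low-Xist libraries of each label, Prl was 0 to 0.230 CPM and 0.0418 to 0.657 CPM. For Gh the ranges were 0 to 0.504 CPM against 1.33 to 5.87 CPM at high Xist, and 0 to 0.153 CPM against 0 to 0.108 CPM at low Xist. The labels give no sex for any library, and the part of sex in these counts was not tested.

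**Figure D3:**
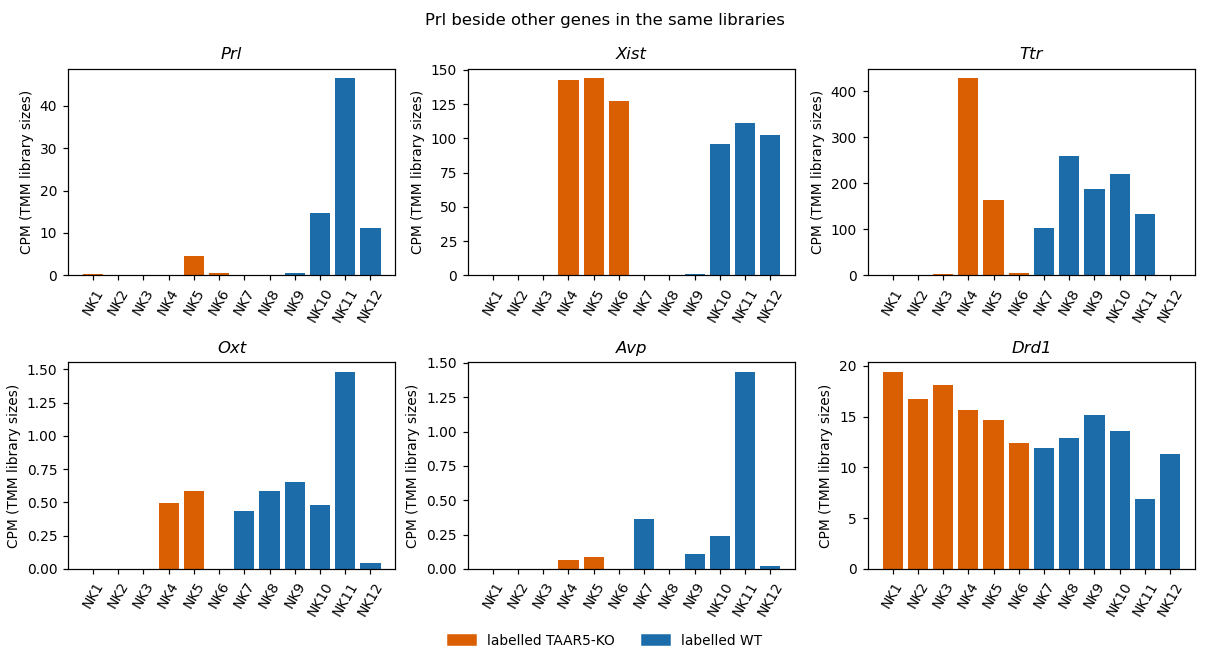
Levels of Prl, Xist, Ttr, Oxt, Avp and Drd1 in CPM on TMM library sizes (vertical axes, each from 0 on its own scale) in libraries NK1 to NK12, coloured by genotype label. Prl is highest in NK11 (46.5 CPM) and at 0.124 CPM in NK4, where Ttr is at 428 CPM and Xist at 143 CPM, and NK11 has the most Oxt and Avp and the least Drd1 (6.93 CPM).

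Features whose log2 CPM was most like that of Gh over the 12 libraries, beside Prl, were ranked by Pearson's r, again without a test. Of the 10 with the highest r, from 0.84 to 0.91, none is a known pituitary hormone gene. Rps3a3 (0.91) and Gm15772 (0.87) are annotated as processed pseudogenes and Gm7292 (0.89) as a long non-coding RNA, and reads of such copies may have been divided with their parent genes. They had 21, 104 and 150 counts (Rps3a3), 70, 241 and 567 (Gm7292) and 69, 102 and 318 (Gm15772) in NK10, NK11 and NK12 and at most 6 in any other library. In NK5, where Prl had 111 counts, they had 3, 1 and 1. The other 7 features, Fam107a, Mrpl37, Gpt2, Igsf8, Fitm2, Nrip3 and Hmga1, were counted in every library, with at least 549 counts for Fam107a.

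**Figure D4:**
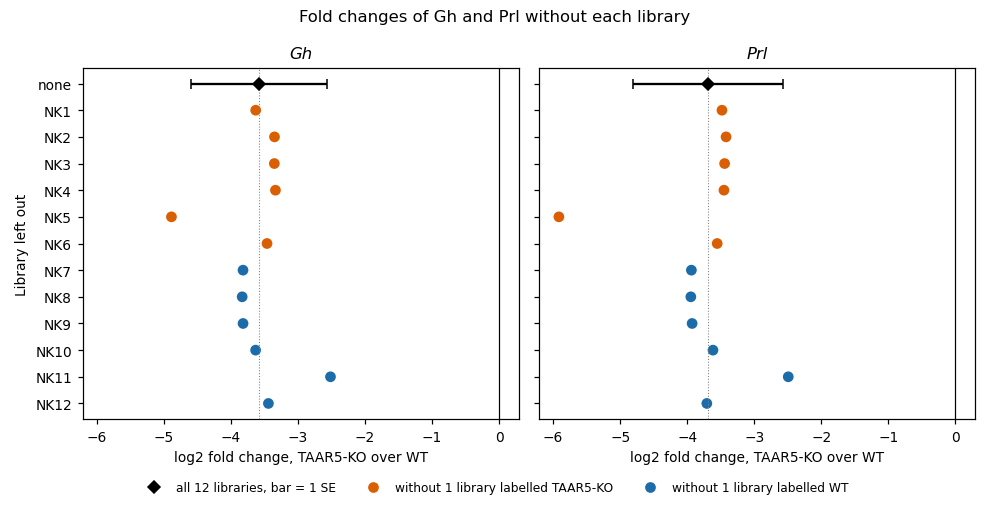
Fitted log2 fold change, TAAR5-KO label relative to WT label (horizontal), for Gh and Prl with all 12 libraries (diamond, bar of 1 SE on either side) and without each library in turn (points, coloured by the label of the library left out). Points of Gh lie between −4.89 and −2.51 and those of Prl between −5.91 and −2.49, with NK5 at the low end and NK11 at the high end of both.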

How the data were processed

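The authors depleted total RNA of ribosomal RNA, made directional libraries, trimmed reads with cutadapt 4.1, and used STAR 2.7.11b with GRCm39 for alignment and featureCounts 2.0.6 for counts of each gene. The deposited table holds raw counts, neither normalized nor pooled, and the merged exon length of each gene as an annotation value in bases. The settings for strand, multiple mapping and overlapping genes are not given in the sources used here. The table has 12 other library columns, which are left out. The labels' animal numbers are not in the columns, so a column is a replicate of its genotype.

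Of 57132 features, 13902 passed the filter (0.5 CPM or more, before TMM scaling, in 3 or more libraries). They were scaled with TMM and compared with glmFit and glmLRT of edgeR 4.0.16 (R 4.3.3), with test, filter and threshold after the study's methods. The fit was tested on simulated data. SEs came from the same fit. The quasi-likelihood test and DESeq2 1.42.0 were alternatives, with other scalings, filters, a stricter threshold and leaving out libraries. The 30 within-genotype pairs differed beyond sampling noise (chi-square per degree of freedom at least 6.74). Ribosomal features and overlaps came from GENCODE on GRCm39 (a later release), promoters from RefSeq. The genes and lists were chosen with earlier results of these data known. DESeq2 gave 7009 of the 13902 features no adjusted p, and these stay out of its counts. Named were the 8 genes, called list genes, defining markers, sex chromosome genes and the 10 features most like Gh by Pearson's r of log2 CPM (prior count 2). List genes named for their small p, Socs2, Igf1 and Lhx9, and Ghr and Prlr, Trhr, Crhr1, Scg5, Trh, Nkx2-1, Sim1, Crh, Sst, Npy and Taar5 were named after their values were seen. So were Otp, Rax and Gnrh1. Some list genes are not reported here by name.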

Additional observations from a re-analysis of the deposited data

Results flagged for a closer look

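Within each genotype label, a library was singled out where its gap to the nearest other library exceeded 0.625 of the range of the 6 libraries (Dixon's ratio), and 17 genes in 25 groups with more than 3 counts were examined. For normally distributed values chance singles out about 5% of groups, a rate that need not hold for levels resting on a few counts, and 7 were singled out. Since Prl, Gh, Pomc and Tshb were chosen with counts of these libraries known, and the other genes with earlier results of these data known, the ratio describes all of them and tests nothing. The 7 are therefore not to be read against the 5%. NK5 stood out among libraries labelled TAAR5-KO for Prl, at 4.66 CPM with the next library at 0.496 CPM, for Gh, at 0.504 CPM with the next at 0.153 CPM, and for Sim1, a hypothalamic transcription factor, at 0.504 CPM with the next at 0.162 CPM. NK11 stood out among libraries labelled WT for Prl, at 46.5 CPM with the next at 14.8 CPM, for Pomc, at 3.38 CPM with the next at 0.329 CPM, and for Avp, at 1.43 CPM with the next at 0.361 CPM. NK10 stood out among them for Tshb, at 0.724 CPM with the next at 0.317 CPM, a level that rests on 6 counts.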

How the results depend on the processing

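NK10, NK11 and NK12 lay above all libraries labelled TAAR5-KO for Gh and Prl, 2 genes chosen with these counts known. Leaving out 1 library could therefore hardly change the sign of a fold change, and a constant sign is only a description. The log2 fold changes of Gh and Prl were negative in every fit run in which the gene passed the filter. They ran from −4.89 to −2.51 for Gh and from −5.91 to −2.49 for Prl when 1 library was left out, and Prl was −2.03 without NK11 and NK12, an alternative chosen after the data were seen, in which Gh and Tshb could not be fitted. Tshb ran from −0.11 to 0.14 when 1 library was left out, other than NK5, NK7 or NK12, without which it did not pass the filter, and was −0.51 on library size alone, which shifts the median of all features to −0.49. edgeR's filterByExpr rule kept none of Gh, Prl and Tshb and no pineal gene, and DESeq2 gave no adjusted p for the further pituitary, pineal and leptomeningeal genes. The 229 calls over all features became 63 with the quasi-likelihood test, 93 with every feature of at least 1 count, 108 at an adjusted p under 0.05, 52 without NK11 and NK12 (24 higher, 28 lower) and 7 on library size alone (0 higher, 7 lower), and ran from 85 without NK11 to 415 without NK4. The cause was not tested. The 1 call among granule genes, Pcsk1n, became 0 with the quasi-likelihood test, library size alone, every feature of at least 1 count, an adjusted p under 0.05 and without NK11 and NK12, and ran from 0 to 1 when 1 library was left out. The 1 call among blood genes, Hbb-bt, became 0 with the quasi-likelihood test and library size alone, received no adjusted p from DESeq2, did not pass filterByExpr, and ran from 1 to 3 without 1 library (3 without NK6, 2 without NK10). Among hypothalamic genes, 0 calls became 1 with every feature of at least 1 count (Avp, −3.54) and 1 without NK11 and NK12 (Npy, 0.50), and ran from 0 to 1 without 1 library (Trh, without NK5). Pineal genes ran from 0 to 1 (Lhx9, without NK4 or NK12), and spiny neuron genes from 0 to 1 (Drd1, without NK6 or NK9), with 1 by DESeq2. These genes were named after their values were seen. On CPM outside ribosomal RNA, the log2 ratio of group mean levels was −3.72 for Gh and −3.51 for Prl, against −3.72 and −3.71 on the TMM scale. No paired analysis was possible because the count columns carry no animal number. Cga, Ghrhr and Lhb were at or near the limit that 3 counts set, so differences in them were not detectable at this depth.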
